A study of Mus musculus with 9 samples.

Results

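The circadian clock genes described here are the 10 genes Clock, Per1, Per2, Cry1, Cry2, Nr1d1, Nr1d2, Bhlhe40, Dbp and Tef, chosen by symbol from a table of 16509 genes measured by RNA sequencing in the mouse colon carcinoma cell line MC38. All 10 were in the table, under the gene identifiers 12753 (Clock), 18626 (Per1), 18627 (Per2), 12952 (Cry1), 12953 (Cry2), 217166 (Nr1d1), 353187 (Nr1d2), 20893 (Bhlhe40), 13170 (Dbp) and 21685 (Tef), and all 10 were among the 11949 genes with enough reads to be tested. The study treated MC38 cells with Cadict, a nanodrug in which copper and cystine are joined with glucose oxidase and with GE11, a peptide that binds the receptor EGFR, in order to set off 2 forms of cell death that follow from excess copper and from disulfide stress. It sequenced 3 groups of 3 libraries each, named Ctrl, Cu-Cys and Cadict. Ctrl cells had no nanodrug and received the vehicle, which the sample labels give as DMSO and the study's methods as PBS. Cu-Cys cells received the copper-cystine particle without glucose oxidase and GE11, and Cadict cells received the complete particle. All the cells came from 1 established line, for which the labels name no gene edit, and the dose, the exposure time and the hour of collection of these 9 libraries are not given in the sources used here.

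The mammalian clock is a feedback loop of transcription. CLOCK pairs with BMAL1 (the gene Arntl) and switches on the Per and Cry genes through a DNA word called the E-box, and PER and CRY proteins then return to the nucleus and hold their own activators down. A further loop runs through the nuclear receptors REV-ERB alpha and beta (Nr1d1 and Nr1d2), which repress Arntl, while Bhlhe40 encodes a repressor that competes for E-boxes, and Dbp and Tef encode activators that bind D-boxes in output genes. In cultured cells these genes are known to respond to signals such as serum, glucose and cAMP.

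The DNA words through which these loops act were looked for in the promoters of the members, taken as 250 bases before to 50 bases after each annotated start in RefSeq (mouse build GRCm38.p6), and 5 stretches are shown because they hold the words that tie the members to one another. Of the 10 members 8 had a promoter there, while Per2 and Bhlhe40 were not matched. Capitals mark the E-box CACGTG or the variant E'-box CACGTT, which reads AACGTG on the other strand.

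Cry1: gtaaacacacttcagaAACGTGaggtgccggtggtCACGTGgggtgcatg

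Cry2: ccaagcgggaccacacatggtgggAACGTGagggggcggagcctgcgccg

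Nr1d1: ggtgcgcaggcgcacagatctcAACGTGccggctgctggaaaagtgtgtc

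Per1: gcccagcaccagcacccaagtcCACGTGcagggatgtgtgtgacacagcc

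Tef: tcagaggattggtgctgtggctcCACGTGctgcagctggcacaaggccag

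The stretches lie on the GRCm38.p6 build at chr10:85185100-85185149 (minus strand) for Cry1, at chr2:92434210-92434259 (minus strand) for Cry2, at chr11:98775378-98775427 (minus strand) for Nr1d1, at chr11:69098761-69098810 (plus strand) for Per1 and at chr15:81802523-81802572 (plus strand) for Tef, and all 5 lie upstream of the start. Both strands were searched. A member was counted if any of its promoters held the word, and Clock had 3 promoters and Per1 and Tef 2 each. The shares of all promoters count single promoters, so the 2 are not in like units. The E-box was found in Per1, Cry1 and Tef and in 7.15% of all 32851 promoters of the table, and the E'-box was found in Cry1, Cry2 and Nr1d1 and in 4.685% of all promoters. The D-box TTATGNAA and the CRE half-site TGACGT, the word bound by CREB, were found among the members in Per1 only, against 3.385% and 7.513% of all promoters, and the word TAGGTCA bound by REV-ERB and ROR receptors was found in none of the 8, against 2.606%. A match is a description of the letters and no evidence of binding.

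The libraries held 17905771 to 18293056 counts each. In the Cadict libraries the 50 most abundant genes took 22.1% to 23.0% of all counts, compared with 11.8% to 11.9% in Ctrl and 12.3% to 12.5% in Cu-Cys. TMM scaling assumes that most genes do not change. Under it, 47.8% of tested genes changed at least 2-fold in Cadict against Ctrl (edgeR adjusted p of at most 0.001). Scaling to the library total instead shifted the median change of all tested genes in Cadict against Ctrl by −0.952 on the log2 scale. The part of the abundant genes in this shift was not tested. Levels below are in TMM-scaled CPM (counts scaled to library depth) unless given otherwise, and values of the clock genes and the genes around them in Cadict against Ctrl are given beside those under library totals. Cadict replicate 2 stood apart from the other Cadict libraries, with chi-square values per degree of freedom of 18.5 and 29.4 against 4.29 for the remaining pair, and it was retained. As to the identity of the cells, 4 of the 7 colon epithelium markers in the table stayed under 1 CPM in every library, with Epcam at 0 in Ctrl and Cu-Cys, whereas the 5 mesenchymal markers summed to 2604 to 3406 CPM and the 2 leukocyte markers to at most 0.252 CPM. The summed epithelial markers were at 5.33 to 6.83 CPM in Ctrl, 4.01 to 4.38 CPM in Cu-Cys and 24.2 to 26.1 CPM in Cadict, and their part in the changes of the clock genes was not tested. In bulk RNA, fewer cells expressing a gene and less of its RNA per cell cannot be told apart.

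In untreated cells the members spanned a wide range. Per length, in TPM, Bhlhe40 was highest in Ctrl at 23.8 ± 1.55 (SD, n = 3), and Nr1d2 at 23.7 ± 1.03 overlapped it. Clock followed at 15.6 ± 0.338 TPM and Nr1d1 at 15.3 ± 0.146 TPM, again with overlapping libraries. Below these came Cry1 at 13.7 ± 0.393 TPM, Tef at 13 ± 0.161 TPM, Per1 at 9.62 ± 0.52 TPM and Cry2 at 7.82 ± 0.252 TPM, each clear of its neighbour. Dbp at 3.32 ± 0.645 TPM and Per2 at 0.717 ± 0.139 TPM were the lowest in all 3 groups, and Bhlhe40 and Nr1d2 were the highest in all 3 groups. In Cu-Cys, Nr1d1 came next to these, at 21.4 ± 0.806 TPM, and Cry1 at 16.4 ± 0.705 TPM overlapped Clock at 15.3 ± 0.654 TPM.

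**Figure D1:**
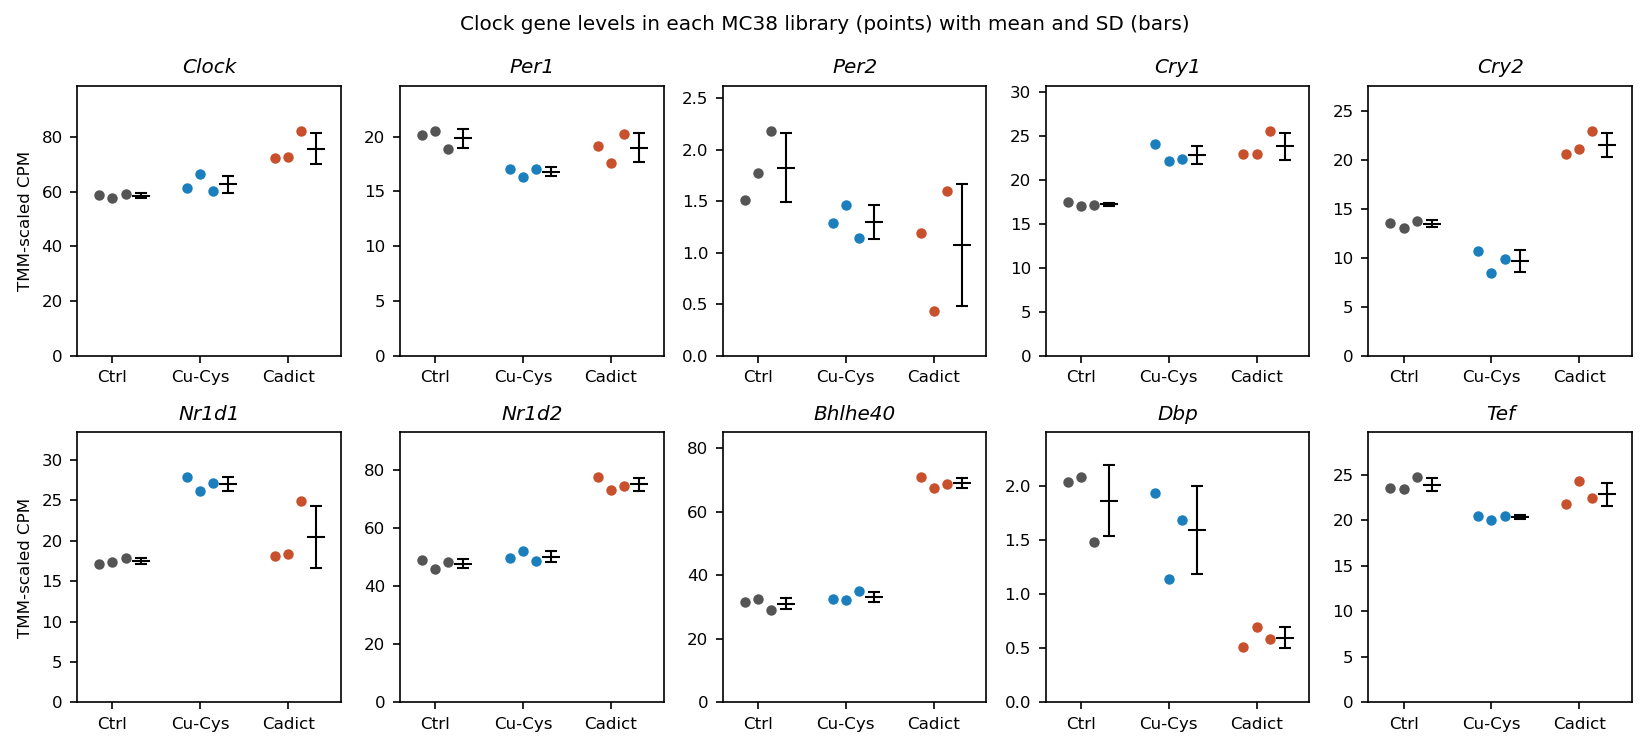
TMM-scaled CPM of the 10 clock genes (vertical axes, each from 0) in the 3 Ctrl, 3 Cu-Cys and 3 Cadict libraries, with points for libraries and bars for the mean and SD. Bhlhe40 stood at 67.5 to 70.7 CPM in Cadict and at 29.2 to 35.0 CPM elsewhere, on this scale Cry2 was lowest in Cu-Cys and highest in Cadict, and Nr1d1 was highest in Cu-Cys.

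With the copper-cystine particle alone, Cry1 and Nr1d1 rose and Per1, Cry2 and Tef fell in Cu-Cys against Ctrl, and 5 members did not pass an adjusted p of at most 0.05 in edgeR's quasi-likelihood test. Of all tested genes 22.6% rose and 22.4% fell by the same measure (45.0% in all), compared with 2 and 3 of the 10 members. None of the members changed at least 2-fold with an adjusted p of at most 0.001, as 1.64% of tested genes did (0.167% higher, 1.47% lower). At an unadjusted p of at most 0.05 there were 5 changed members, and DESeq2's Wald test also called 0. Groups did not overlap for 7 members and for 61.2% of tested genes. The median change of the members was −0.079 on the log2 scale and that of all tested genes 0.0067.

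Nr1d1, the heme-binding repressor of Arntl, was at 17.1, 17.4 and 17.9 CPM in Ctrl and at 27.8, 26.1 and 27.1 CPM in Cu-Cys. All 3 Cu-Cys libraries were above all 3 Ctrl libraries, and the log2 fold change was 0.63 ± 0.091 (SE), higher than that of 97.4% of tested genes (edgeR adjusted p = 6.99e-05). Its relative Nr1d2 was at 45.8 to 48.8 CPM in Ctrl and at 48.5 to 52.1 CPM in Cu-Cys, with overlapping groups and a log2 difference of 0.072 (95% interval −0.045 to 0.19; edgeR adjusted p = 0.304).

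Cry1 and Cry2 encode the cryptochromes, the main repressors of CLOCK and BMAL1. Cry1 was at 17.4, 17.1 and 17.1 CPM in Ctrl and at 24.0, 22.1 and 22.3 CPM in Cu-Cys, a log2 fold change of 0.41 ± 0.068 (edgeR adjusted p = 0.000246), although limma on log2(TPM + 1) gave 0.24 (adjusted p = 0.0575). Cry2 was at 13.6, 13.1 and 13.7 CPM in Ctrl and at 10.7, 8.41 and 9.9 CPM in Cu-Cys, and fell by 0.48 ± 0.091 on the log2 scale (edgeR adjusted p = 0.00066). Thus every Cu-Cys library lay above every Ctrl library for Cry1 and below every Ctrl library for Cry2.

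Per1 and Per2 encode the partners of the cryptochromes. Per1 was at 20.2, 20.5 and 18.9 CPM in Ctrl and at 17.1, 16.3 and 17.1 CPM in Cu-Cys, and fell by 0.24 ± 0.07 on the log2 scale (edgeR adjusted p = 0.0125), and did not pass without Ctrl replicate 2 (−0.21, edgeR adjusted p = 0.0603). Per2 was at 1.51, 1.77 and 2.18 CPM in Ctrl and at 1.29, 1.46 and 1.14 CPM in Cu-Cys. The Per2 groups did not overlap, yet the log2 difference of −0.49 had a 95% interval of −1.04 to 0.064 and did not pass (edgeR adjusted p = 0.138), on 25 to 50 counts a library.

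Of the D-box activators, Tef was at 23.5, 23.5 and 24.7 CPM in Ctrl and at 20.5, 20.1 and 20.5 CPM in Cu-Cys, and fell by 0.23 ± 0.063 on the log2 scale (edgeR adjusted p = 0.0081). Dbp was at 1.48 to 2.08 CPM in Ctrl and at 1.14 to 1.94 CPM in Cu-Cys, with overlapping groups (log2 difference −0.23, 95% interval −0.69 to 0.23, edgeR adjusted p = 0.411). Clock and Bhlhe40 had log2 differences of 0.099 (95% interval −0.03 to 0.23) and 0.094 (95% interval −0.037 to 0.23), which did not pass (edgeR adjusted p = 0.197 and 0.229). None of these 10 directions in Cu-Cys turned under library totals, and with limma on TPM the 3 small differences of Clock, Bhlhe40 and Nr1d2 turned.

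In Cadict against Ctrl, Clock, Cry1, Cry2, Nr1d1, Nr1d2 and Bhlhe40 rose and Per2 and Dbp fell at an adjusted p of at most 0.05 under TMM, although under library totals all of the rises except that of Bhlhe40 turned into falls. Of all tested genes 40.6% rose and 47.1% fell (87.7% in all), so that 8 of 10 changed members is close to the share among all genes. Only Bhlhe40 and Dbp changed at least 2-fold with an adjusted p of at most 0.001, compared with 47.8% of tested genes (20.7% higher, 27.1% lower), whereas under library totals 4 members were called, all of them lower, compared with 58.4% of tested genes (6.93% higher, 51.5% lower). Groups did not overlap for 7 members and for 87.5% of tested genes. The median change of the members was 0.30 on the log2 scale and that of all tested genes −0.13, and under library totals these medians were −0.651 and −1.08. Without Cadict replicate 2, 6 members rose and 1 fell at an adjusted p of at most 0.05. Per2 did not pass with DESeq2 size factors (edgeR adjusted p = 0.0741) or in DESeq2's Wald test. Nr1d1 did not pass with no filter on low counts or with at least 10 counts in every library.

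Bhlhe40, a repressor that is also known to follow hypoxia and other stresses, had the largest rise. It was at 31.5, 32.6 and 29.2 CPM in Ctrl, at 32.4, 32.1 and 35.0 CPM in Cu-Cys and at 70.7, 67.5 and 68.5 CPM in Cadict. Every Cadict library was above every other library, and the log2 fold change against Ctrl was 1.15 ± 0.061, or 2.22-fold (edgeR adjusted p = 5.24e-11), higher than that of 81.6% of tested genes. Its size rested on the scaling, since library totals gave 0.20 (edgeR adjusted p = 0.00946) and limma on log2(TPM + 1) gave −0.15 (adjusted p = 0.137). Estimated counts were 669 to 753 in Ctrl and 775 to 832 in Cadict.

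Dbp, which encodes an activator of output genes and is itself driven by CLOCK and BMAL1, had the largest fall. It was at 2.03, 2.08 and 1.48 CPM in Ctrl and at 0.51, 0.697 and 0.588 CPM in Cadict, where its estimated counts were 6.37, 8.32 and 7.26. All Cadict libraries lay below all others. Dbp passed the filter on low counts through Ctrl and Cu-Cys, where it was higher. The log2 fold change was −1.63 ± 0.32 (edgeR adjusted p = 0.000194), and Dbp was below Ctrl under every scaling tried (−2.58 under library totals). The adjusted p exceeded 0.001 without Cadict replicate 1 (log2 fold change −1.53, edgeR adjusted p = 0.00183) and without Cadict replicate 3 (−1.62, edgeR adjusted p = 0.00101), so that the call at that threshold rested on each of them, and it was 0.00112 in DESeq2's Wald test (−1.56). Tef, the relative of Dbp, was at 21.8, 24.3 and 22.5 CPM in Cadict, overlapping Ctrl, with a log2 difference of −0.064 (95% interval −0.21 to 0.081; edgeR adjusted p = 0.381) under TMM and −1.02 under library totals.

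Both cryptochrome genes were above Ctrl with Cadict under TMM. Cry2 was at 20.6, 21.1 and 22.9 CPM, a log2 fold change of 0.68 ± 0.089 against Ctrl (edgeR adjusted p = 2.93e-06), which became −0.28 under library totals. Cry1 was at 22.9, 22.9 and 25.5 CPM, a log2 fold change of 0.47 ± 0.073 (edgeR adjusted p = 2.11e-05), which became −0.49 under library totals. For neither gene did the Cadict libraries overlap Ctrl.

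Of the nuclear receptor genes, Nr1d2 was at 77.3, 72.9 and 74.6 CPM in Cadict, a log2 fold change of 0.65 ± 0.055 against Ctrl (edgeR adjusted p = 1.67e-08; −0.30 under library totals). Nr1d1 was at 18.1, 18.4 and 24.9 CPM, just above the 3 Ctrl libraries in replicates 1 and 2 and well above them in replicate 3. Its log2 fold change of 0.23 ± 0.1 (edgeR adjusted p = 0.0449; −0.72 under library totals) was 0.06 without Cadict replicate 3 (edgeR adjusted p = 0.496), and it no longer passed in 7 of the 9 fits that left out 1 library.

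Of the remaining members, Clock was at 58.7, 57.5 and 59.2 CPM in Ctrl and at 72.2, 72.6 and 82.1 CPM in Cadict, a log2 fold change of 0.37 ± 0.062 (edgeR adjusted p = 3.93e-05) that became −0.58 under library totals. Per1 was at 19.1, 17.6 and 20.2 CPM in Cadict, overlapping Ctrl, with a log2 difference of −0.064 (95% interval −0.23 to 0.098; edgeR adjusted p = 0.437; −1.02 under library totals). Per2 had 14, 5 and 19 counts in the Cadict libraries, or 1.19, 0.436 and 1.6 CPM, and it too passed the filter through the other groups. Replicate 2 was the low one, and the log2 fold change of −0.75 ± 0.32 (edgeR adjusted p = 0.0364; −1.70 under library totals) became −0.39 without it (edgeR adjusted p = 0.217). It also failed to pass without Cadict replicate 1 (−0.83, edgeR adjusted p = 0.0607), Ctrl replicate 2 (−0.78, edgeR adjusted p = 0.0556) and Ctrl replicate 3 (−0.61, edgeR adjusted p = 0.118).

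**Figure D2:**
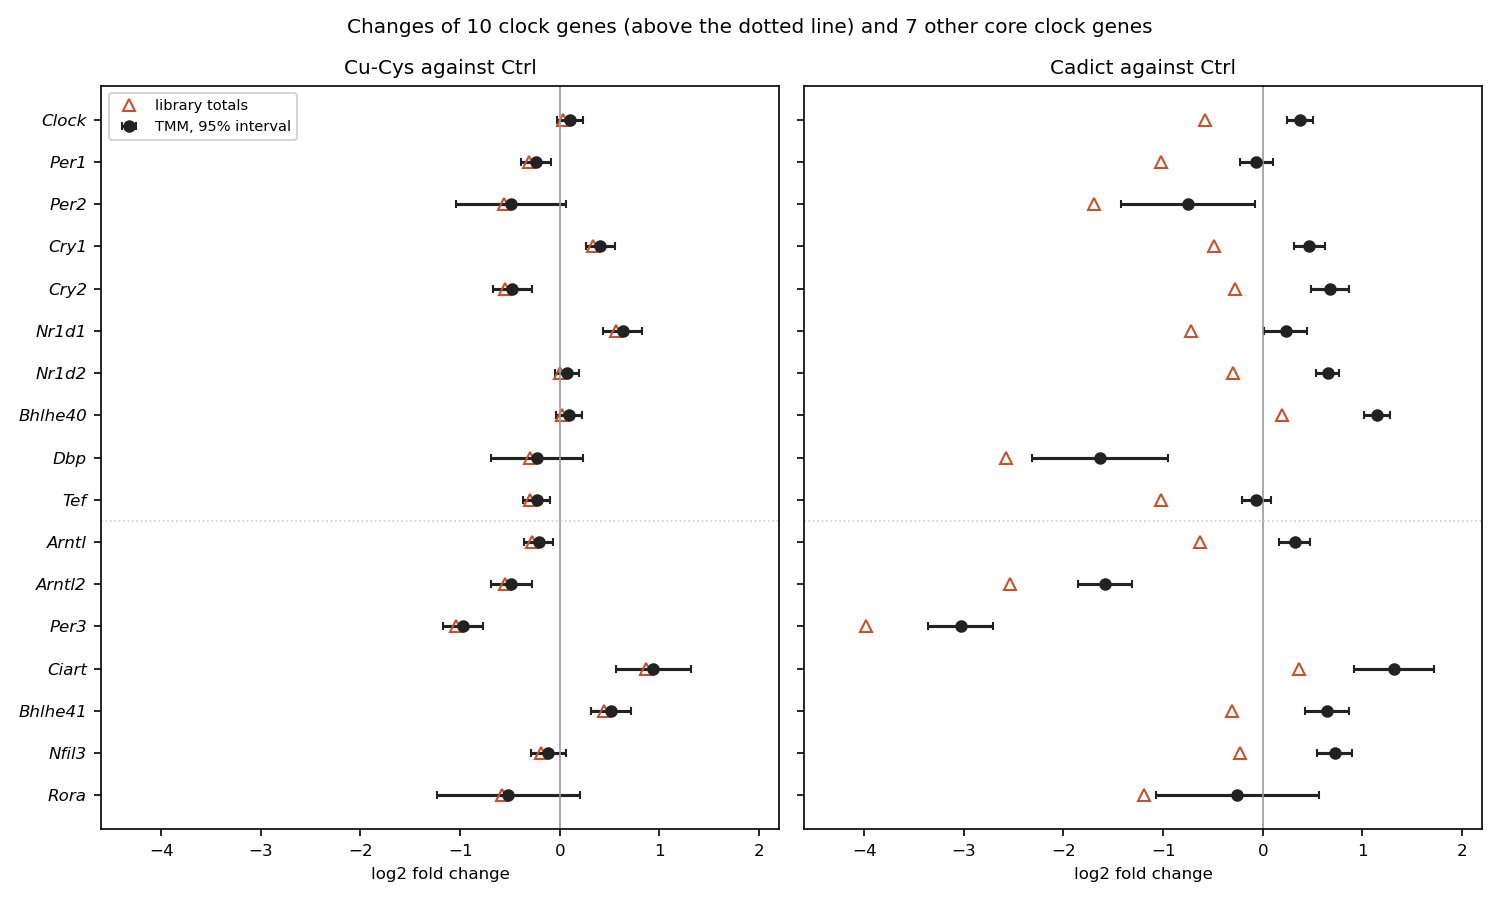
Log2 fold changes against Ctrl (horizontal axes) of the 10 clock genes and of 7 other core clock genes in Cu-Cys (left) and Cadict (right), with filled points and 95% intervals for TMM scaling and open triangles for library totals. In Cu-Cys the triangles lie close to the points, and in Cadict they lie to the left, with a shift of −0.952 at the median of all genes. In Cadict, Clock, Cry1, Cry2, Nr1d1, Nr1d2, Arntl, Bhlhe41 and Nfil3 cross 0. Per1, Per2, Dbp, Tef, Arntl2, Per3 and Rora lie below it under both scalings, and Bhlhe40 and Ciart lie above it under both.

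The direct comparison of the 2 particles sets the complete particle beside the one without glucose oxidase and GE11. Dose and uptake in these libraries are not given, so the part of each component cannot be told apart. In Cadict against Cu-Cys, Cry2 and Bhlhe40 were called at least 2-fold higher and 0 members lower under TMM, compared with 42.2% of tested genes called (18.6% higher, 23.6% lower). At the looser threshold, an adjusted p of at most 0.05, there were 6 members higher and 2 lower, compared with 40.3% and 45.6% of tested genes (85.9% in all), and groups did not overlap for 8 members and for 85.0% of tested genes. The median change was 0.17 for the members and −0.099 for all tested genes. Under library totals these medians were −0.712 and −0.98, with 0 members called higher and 2 lower. Of all tested genes 53.5% were called on that scale (688 genes higher and 5705 lower). Cry2 stood 1.15 ± 0.093 higher on the log2 scale with Cadict (edgeR adjusted p = 9.87e-09), and it stayed above Cu-Cys under library totals, at 0.27 (edgeR adjusted p = 0.0146), while limma on log2(TPM + 1) gave −0.00028 (adjusted p = 0.998). Bhlhe40 stood 1.05 ± 0.061 higher (edgeR adjusted p = 1.79e-10) and at 0.17 under library totals, with −0.1 by limma on log2(TPM + 1). Nr1d1 was lower with Cadict by TMM (log2 fold change −0.40 ± 0.098, edgeR adjusted p = 0.0014) and by library totals (−1.28), and Dbp likewise (−1.40 ± 0.33, edgeR adjusted p = 0.00105; −2.28 under library totals). Clock (0.27), Nr1d2 (0.58), Per1 (0.18) and Tef (0.17) were higher by TMM and lower by library totals, and the calls of Per1 and Tef were weak. Per1 no longer passed in 8 and Tef in 7 of the 9 fits that left out 1 library, nor did either with a replicate block (edgeR adjusted p = 0.0728 and 0.0598), with no filter on low counts, with at least 10 counts in every library or with DESeq2's Wald test, so that 4 members were higher in each of these 4 alternatives. Cry1 differed by 0.061 (95% interval −0.092 to 0.21; edgeR adjusted p = 0.433) by TMM and by −0.82 under library totals.

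Ratios of related members within a library do not depend on the scaling. The log2 ratio of Cry1 to Cry2 counts was 0.36, 0.38 and 0.32 in Ctrl, 1.16, 1.39 and 1.17 in Cu-Cys and 0.15, 0.12 and 0.15 in Cadict. The groups did not overlap, with Cu-Cys 0.89 above Ctrl and Cadict 0.21 below it. An exact two-sided permutation test gave p = 0.1 for each, the smallest that 3 libraries against 3 allow, and 0.16 after Benjamini-Hochberg adjustment over the 8 ratios tested. The Nr1d1 to Nr1d2 ratio was −1.51, −1.39 and −1.44 in Ctrl, −0.84, −1.0 and −0.84 in Cu-Cys and −2.09, −1.98 and −1.58 in Cadict, so that Cu-Cys was 0.56 above Ctrl and Cadict 0.44 below it (exact permutation p = 0.1 each, adjusted 0.16). The Dbp to Tef ratio was −3.51, −3.48 and −4.02 in Ctrl and −5.23, −4.99 and −5.11 in Cadict, a difference of −1.44 without overlap (exact permutation p = 0.1, adjusted 0.16), whereas in Cu-Cys it differed from Ctrl by −0.015 (exact permutation p = 1). The Per1 to Per2 ratio overlapped in both comparisons, with differences of 0.82 in Cadict and 0.23 in Cu-Cys (exact permutation p = 0.2 and 0.5).

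**Figure D3:**
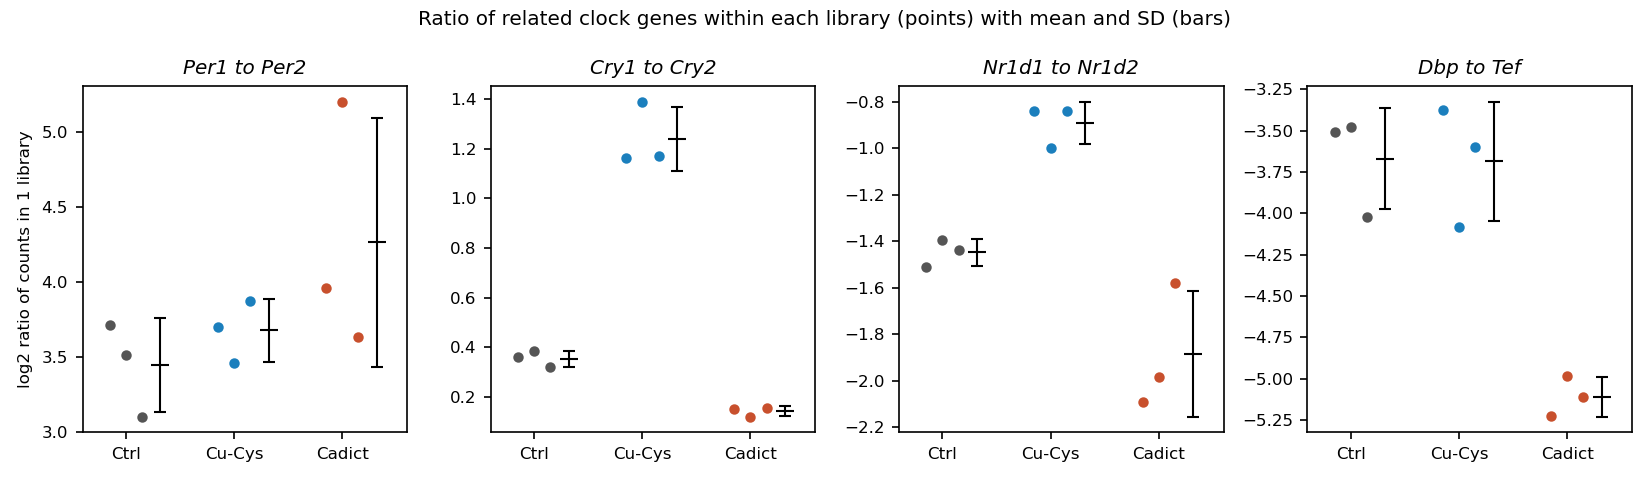
Log2 ratio of the counts of 2 related clock genes within each library (vertical axes, not from 0) for 4 pairs, with points for libraries and bars for the mean and SD. For Cry1 to Cry2 and Nr1d1 to Nr1d2, the Cu-Cys libraries lie above Ctrl and the Cadict libraries below it, and for Dbp to Tef only Cadict lies apart.

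Nr1d1 and Dbp share sequence with a neighbour on the other strand. In the GENCODE M21 annotation of GRCm38, 263 of the 3077 exon bases of Nr1d1 (8.55%) overlap Thra, the thyroid hormone receptor alpha gene, and 539 of the 2993 exon bases of Dbp (18%) overlap Sphk2, a sphingosine kinase gene. These were the only 2 members with estimated counts that were not whole, and in 9 of 9 libraries the counts of Nr1d1 and Thra, and those of Dbp and Sphk2, summed to a whole number within 0.015. Counts of these pairs were thus divided between the 2 partners by estimation, and the use of strand is not given in the sources used here. Without the strand, reads from the shared bases cannot be told apart between partners. The values of all 4 genes rest in part on the division by estimation. Thra moved against Nr1d1 in Cu-Cys, from 37.2, 36.4 and 33.7 CPM in Ctrl to 24.1, 24.2 and 25.3 CPM, a log2 fold change of −0.54 (edgeR adjusted p = 8.08e-06). The summed counts of the pair were 1255, 1243 and 1183 in Ctrl and 1125, 1100 and 1150 in Cu-Cys. The part of Nr1d1 in the summed counts of the pair was 31.6% to 34.7% in Ctrl, 51.7% to 53.6% in Cu-Cys and 67.6% to 76.1% in Cadict, and Thra fell by 2.11 on the log2 scale in Cadict (edgeR adjusted p = 9.99e-13; −3.06 under library totals). Sphk2 overlapped between groups and differed from Ctrl by 0.12 in Cadict (edgeR adjusted p = 0.223; −0.83 under library totals), and the part of Dbp in the pair was 8.36% to 10.6% in Ctrl and 2.62% to 3.68% in Cadict. Cry2, Bhlhe40 and Tef overlap non-coding genes on the other strand over 4.67%, 2.51% and 2.45% of their exon bases, and those genes were not analysed here.

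**Figure D4:**
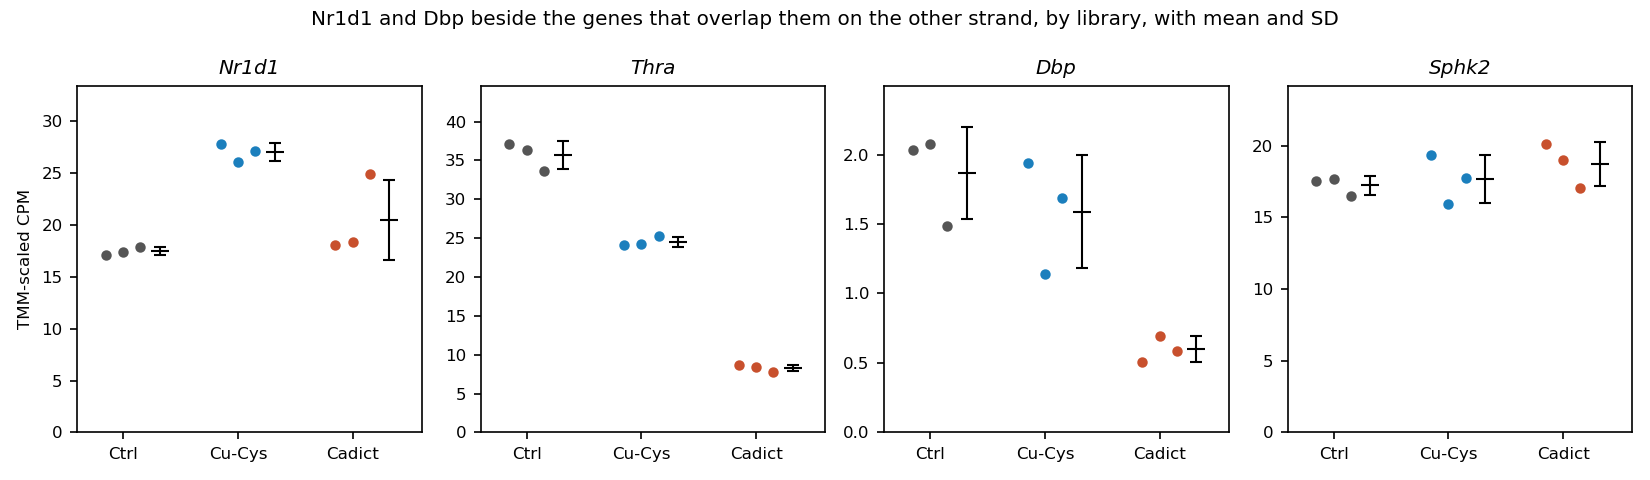
TMM-scaled CPM (vertical axes, each from 0) of Nr1d1, Dbp and the genes that overlap them on the other strand, Thra and Sphk2, in each library, with the mean and SD. Thra stands at 33.7 to 37.2 CPM in Ctrl, 24.1 to 25.3 CPM in Cu-Cys and 7.81 to 8.67 CPM in Cadict, while Sphk2 stays between 16 and 20.1 CPM.

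Of the other genes of the core loop 7 were tested and are given here, while Npas2, Rorb and Hlf had too few reads. Per3, a further Period gene, was at 10.6, 10.8 and 10.9 CPM in Ctrl, at 5.21, 5.95 and 5.29 CPM in Cu-Cys and at 1.53, 1.39 and 1.01 CPM in Cadict, without overlap between any 2 groups. Its log2 fold change was −0.97 ± 0.096 in Cu-Cys (edgeR adjusted p = 2.04e-06), lower than all but 3.0% of tested genes, and −3.03 ± 0.15 in Cadict (edgeR adjusted p = 2.3e-11; −3.98 under library totals), on 12 to 18 counts a Cadict library. Ciart, which encodes a repressor of CLOCK and BMAL1, was at 1.82, 2.9 and 1.88 CPM in Ctrl, at 4.15, 4.25 and 4.24 CPM in Cu-Cys and at 4.5, 6.28 and 5.71 CPM in Cadict. It rose by 0.94 ± 0.18 in Cu-Cys, more than 99.2% of tested genes (edgeR adjusted p = 0.000606), and by 1.32 ± 0.19 in Cadict (edgeR adjusted p = 7.81e-06), where library totals gave 0.37 (edgeR adjusted p = 0.074).

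Arntl, the partner of Clock, was at 68.0, 71.8 and 69.7 CPM in Ctrl, 56.5, 62.9 and 61.2 CPM in Cu-Cys and 97.5, 78.9 and 84.9 CPM in Cadict. It fell by 0.21 in Cu-Cys (edgeR adjusted p = 0.0218) and was 0.32 above Ctrl in Cadict (edgeR adjusted p = 0.000598), which turned to −0.63 under library totals. Its paralogue Arntl2 fell in both, by 0.49 (edgeR adjusted p = 0.000866) and by 1.58 (edgeR adjusted p = 8.93e-09; −2.53 under library totals in Cadict). Bhlhe41, the relative of Bhlhe40, rose by 0.51 in Cu-Cys (edgeR adjusted p = 0.000497) and stood 0.64 above Ctrl in Cadict (edgeR adjusted p = 2.39e-05; −0.31 under library totals). Nfil3, a repressor that binds D-boxes, was 0.72 above Ctrl in Cadict (edgeR adjusted p = 6.57e-07; −0.23 under library totals) and −0.12 in Cu-Cys (edgeR adjusted p = 0.263). The receptor gene Rora was low, with 14, 11 and 22 counts in Ctrl, 13, 10 and 8 counts in Cu-Cys and 6, 7 and 7 counts in Cadict, and it passed in neither comparison with Ctrl (log2 fold change −0.52 in Cu-Cys, edgeR adjusted p = 0.228, and −0.25 in Cadict, edgeR adjusted p = 0.538), while library totals gave −1.20 in Cadict (edgeR adjusted p = 0.00664). Rora passed the filter on low counts through groups other than Cadict. In all, 2 of these 7 genes rose and 3 fell in Cu-Cys at an adjusted p of at most 0.05, compared with 22.6% and 22.4% of tested genes. In Cadict 4 rose and 2 fell under TMM, compared with 40.6% and 47.1% of tested genes, while under library totals 0 rose and 6 fell, compared with 18.1% and 73.1%.

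Genes that act on the clock proteins or carry signals to them were followed in 4 further lists, counted with the same looser threshold. The shares of tested genes that rose and fell were 22.6% and 22.4% in Cu-Cys, 40.6% and 47.1% in Cadict (87.7% in all) and 18.1% and 73.1% in Cadict under library totals (91.1% in all), and in all 4 lists the part that passed in either direction in Cadict is near these shares. Of 17 tested kinases, ubiquitin ligases and other enzymes of clock proteins, 4 rose and 2 fell in Cu-Cys, and 10 rose and 6 fell in Cadict, with 2 and 13 under library totals, so that 16 of 17 passed in Cadict beside 87.7% of tested genes. The largest changes in Cadict were those of Fbxl21, a ligase gene for cryptochromes (log2 fold change −2.90, edgeR adjusted p = 7.32e-07), Siah2, a ubiquitin ligase gene (2.80, edgeR adjusted p = 1.65e-15), and Csnk1e, a kinase gene for PER proteins (1.82, edgeR adjusted p = 3.2e-14), and under library totals they were −3.84, 1.85 and 0.87, the last no longer a 2-fold change. Fbxl21 was at 110, 102 and 85 counts in Ctrl, 34, 48 and 35 counts in Cu-Cys and 1, 11 and 8 counts in Cadict. Like Dbp, it passed the filter on low counts through Ctrl and Cu-Cys, where it was higher. It was the only one of these 17 genes called in Cu-Cys (log2 fold change −1.26, edgeR adjusted p = 0.000333). Of all tested genes 1.64% were called at that 2-fold threshold (1.47% lower).

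Of 12 cofactors of clock transcription, 4 rose and 1 fell in Cu-Cys, beside 45.0% of tested genes in both directions, and 7 rose and 4 fell in Cadict, beside 87.7%, with 2 and 8 under library totals. Sfpq and Nono, which encode RNA-binding partners of PER complexes, changed by 1.87 and 1.08 in Cadict (edgeR adjusted p = 8.05e-15 and 3.1e-12), which library totals lowered to 0.91 and 0.13, both under 2-fold. Cipc, which encodes a CLOCK-interacting repressor, fell by 1.19 (edgeR adjusted p = 4.88e-08; −2.14 under library totals). Of 9 genes of the CREB route that drives the Per genes, 1 rose and 1 fell in Cu-Cys, and 4 rose and 4 fell in Cadict, with 1 and 7 under library totals, beside 45.0%, 87.7% and 91.1% of tested genes in both directions. Crem, a CREB family gene, was at 3.98, 3.85 and 3.71 CPM in Ctrl and at 22.7, 18.7 and 20.2 CPM in Cadict, a log2 fold change of 2.41 (edgeR adjusted p = 2.81e-12; 1.46 under library totals). The coactivator gene Crtc3 and the kinase gene Sik2 fell by 1.48 and 1.13 in Cadict (edgeR adjusted p = 1.92e-08 and 1.89e-10; −2.44 and −2.08 under library totals). Of 6 output genes, 3 rose and 0 fell in Cu-Cys, and 3 rose and 2 fell in Cadict, with 2 and 4 under library totals, beside the same shares. Por, the electron donor of cytochrome P450 enzymes, and Noct rose by 1.62 and 1.35 in Cadict (edgeR adjusted p = 5.57e-14 and 1.28e-11), which library totals lowered to 0.66 and 0.39, both under 2-fold, and Wee1, a cell cycle kinase gene, fell by 1.42 (edgeR adjusted p = 1.22e-11; −2.37 under library totals).

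**Figure D5:**
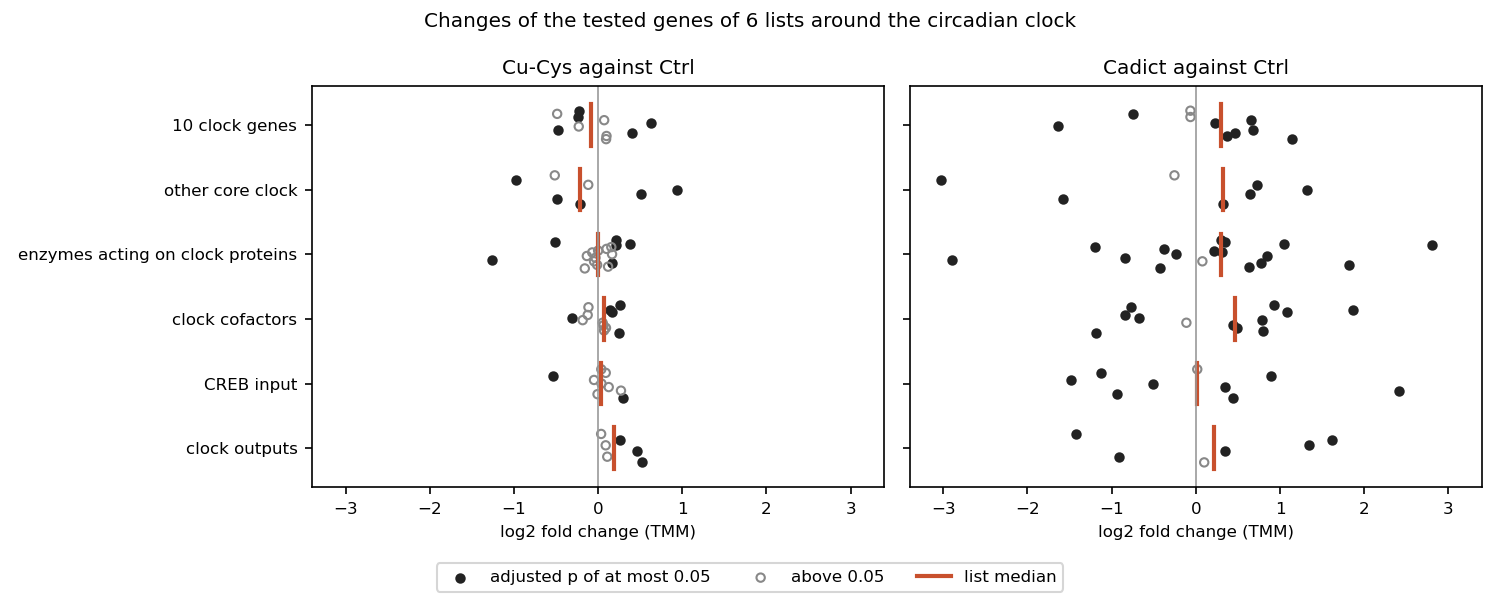
Log2 fold changes under TMM (horizontal axes) of the tested genes of 6 lists around the circadian clock in Cu-Cys (left) and Cadict (right) against Ctrl. Filled points passed an adjusted p of at most 0.05, open points did not, and bars mark the list medians, which lie between −0.214 and 0.186 in Cu-Cys and between 0.017 and 0.465 in Cadict.

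The gene whose log2 CPM followed Bhlhe40 most closely over the 9 libraries, among 8550 other genes with a mean of at least 10 CPM, was Apba3 (Pearson r = 0.9987), which changed by 2.09 in Cadict (1.13 under library totals) and by 0.14 in Cu-Cys. Those closest to Dbp, among 8551 genes, were Rhog (r = 0.9876) and Dvl1 (r = 0.9866), which changed by −0.40 and −0.51 in Cadict (−1.36 and −1.47 under library totals). The 9 points share the scaling of the 3 Cadict libraries, and these values are a description only.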

How the data were processed

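RNA of 9 MC38 libraries was sequenced, and the submitters' processing notes name HISAT2 2.1.0, Bowtie2 2.3.4.3 and RSEM 1.3.1 and the builds GRCh38.p13 and GRCm39, with no role for either build. The authors deposited RSEM expected counts, FPKM and TPM per gene, and pooled means of these, which were not used. The labels and the study's methods differ in the vehicle (DMSO or PBS), the extraction kit and the sequencer. The CC and CCGE columns were taken as Cu-Cys and Cadict from the initials of their components.

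Expected counts were rounded and tested with edgeR 4.0.16 (R 4.3.3; filterByExpr with a minimum of 10 counts, TMM factors, quasi-likelihood fit of the 3 groups, 3 comparisons, Benjamini-Hochberg adjustment over 11949 genes). A call needed a 2-fold change and an adjusted p of at most 0.001, and an adjusted p of at most 0.05 was the looser threshold. Intervals are 95%. Ratios used counts plus 0.5. TMM factors were 1.26 to 1.27 in Ctrl, 1.21 in Cu-Cys and 0.64 to 0.665 in Cadict, so that 3 counts equalled 0.13 CPM in Ctrl and up to 0.261 CPM in Cadict. The scripts were tested on simulated data. DESeq2 1.42.0 and limma 3.58.1 served as alternatives, the latter on the deposited TPM and FPKM.

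The members and lists were chosen with earlier results of these data known. Named genes were all members, all tested other core clock genes, and of each further list the 3 with the largest absolute change in Cadict against Ctrl, with the 2 genes closest to Bhlhe40 and the 2 closest to Dbp in log2 CPM. Of the genes these rules named, 2 are not reported here. Symbols Arntl and Arntl2 stand for Bmal1 and Bmal2. The 3 libraries of a group are labelled as separate samples, with nothing on separate cultures, so that p-values measure the spread between these libraries, which may be technical. No 2 libraries of a group agreed within sampling noise (chi-square per degree of freedom of at least 2.11 over 8551 genes).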

Additional observations from a re-analysis of the deposited data

How the results depend on the processing

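In Cadict against Ctrl, Per2 and Dbp stayed below 0 under every alternative that could test them. The direction of the other 8 members turned under at least 1 other scaling or unit. Per2 and Dbp passed the filter on low counts through Ctrl and Cu-Cys, where they were higher. With at least 10 counts in every library they could not be tested. Their steady direction therefore does not show that these falls are firmer than the changes of the other members. The cause of the scaling difference was not tested. Values are log2 fold changes, and each turned its sign under the alternative named. Under library totals, Cadict against Ctrl gave Clock −0.58, Cry1 −0.49, Cry2 −0.28, Nr1d1 −0.72 and Nr1d2 −0.30, and Cadict against Cu-Cys gave Clock −0.61, Per1 −0.71, Cry1 −0.82, Tef −0.72 and Nr1d2 −0.30. With limma on log2(FPKM + 1), Cadict against Ctrl gave Clock −0.44, Cry1 −0.43, Cry2 −0.23, Nr1d1 −0.65 and Nr1d2 −0.28, and Cadict against Cu-Cys gave Clock −0.48, Per1 −0.57, Cry1 −0.73, Tef −0.60 and Nr1d2 −0.28. With limma on log2(TPM + 1) and on log2(TPM + 0.1), Cadict against Ctrl gave Clock −0.77 and −0.83, Cry1 −0.76 and −0.83, Cry2 −0.54 and −0.62, Bhlhe40 −0.15 and −0.15, Nr1d1 −0.99 and −1.08 and Nr1d2 −0.61 and −0.64. In the same order, Cadict against Cu-Cys gave Clock −0.74 and −0.80, Per1 −0.84 and −0.99, Cry1 −1.01 and −1.09, Cry2 −0.00028 and −0.00049, Bhlhe40 −0.10 and −0.11, Tef −0.87 and −0.98 and Nr1d2 −0.55 and −0.58, and Cu-Cys against Ctrl gave Clock −0.029 and −0.031, Bhlhe40 −0.046 and −0.048 and Nr1d2 −0.063 and −0.066. DESeq2 size factors and DESeq2's Wald test gave Per1 0.056 and 0.016 and Tef 0.055 and 0.016 in Cadict against Ctrl, and with no filter on low counts Cry1 was −0.029 in Cadict against Cu-Cys.

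The number of members called in Cadict against Ctrl, 2 in the report, was 4 under library totals (58.4% of all genes tested), 3 on log2(TPM + 1) (57.4%) and 5 on log2(TPM + 0.1) (63.9%). It was 1 on log2(FPKM + 1) (46.6%), 1 with DESeq2's Wald test (39.0%) and 1 with at least 10 counts in every library (45.7%), where Per2 and Dbp could not be tested. With a library left out it was 1 to 2 (46.3% to 47.5%). In Cadict against Cu-Cys it was 3 on log2(TPM + 1) (51.4%), 3 on log2(TPM + 0.1) (59.0%), 1 on log2(FPKM + 1) (41.6%) and 2 to 3 with a library left out (40.8% to 41.9%). With the looser threshold of 0.05 and no limit on the fold, it was 8 in both comparisons with Cadict and 5 in Cu-Cys against Ctrl, compared with 10484, 10263 and 5381 of all genes. All genes called in Cu-Cys against Ctrl were 119 with at least 10 counts in every library, 116 on log2(TPM + 1) and 71 on log2(FPKM + 1), against 196. Leaving out 1 library turned 1 member value, Per2 in Cadict against Cu-Cys, which ranged from −0.67 to 0.099 and was above 0 without Cadict replicate 2. Depth limits Per2 and Dbp, with 5 to 19 and 6.37 to 8.32 counts in the Cadict libraries.

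Same-numbered libraries did not deviate together (correlation of deviations −0.192 to 0.152 over 8551 genes, above 0.1 in 2 of 9 pairs), so that the numbers were not taken as pairs. With a replicate block, the calls held 2 members among 5685 genes for Cadict against Ctrl, 2 among 5019 for Cadict against Cu-Cys and 0 among 183 for Cu-Cys against Ctrl, and Bhlhe40 and Dbp changed by 1.15 and −1.63 in Cadict against Ctrl.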
